A study of Mus musculus with 4 samples.

Results

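The matrix metalloproteinases (MMPs) and their tissue inhibitors (TIMPs) were followed in mouse embryonic fibroblasts (MEF) by RNA-seq of total RNA. The set was fixed by gene name and holds 10 genes of the 25909 that could be named in the deposited table: 7 MMPs (*Mmp2*, *Mmp3*, *Mmp9*, *Mmp10*, *Mmp11*, *Mmp13* and *Mmp14*) and 3 TIMPs (*Timp1*, *Timp2* and *Timp3*). These genes were chosen with earlier results of these data known. Each gene was represented by the transcript with the longest gene body on its strand at the mm10 gene position, and all 10 had a transcript in the table. There were 4 libraries, 1 each for *Hmga2*+/+ Ctrl, *Hmga2*+/+ TGFB1, *Hmga2*-/- Ctrl and *Hmga2*-/- TGFB1. *Hmga2*+/+ MEF are wild type, and *Hmga2*-/- MEF lack the chromatin protein HMGA2 throughout. Both came from C57BL/6 embryos of embryonic day 15.5, from the body without head, limbs, tail, liver, heart and other viscera, and both were immortalized with simian virus 40. All cultures were starved overnight in medium with 1% FCS. For the next 24 h the TGFB1 cultures had human recombinant TGFB1 at 10 ng/ml in the medium, and the Ctrl cultures had water. Whether a genotype is 1 clone or 1 embryo was not given in the sources used here.

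MMPs are zinc-dependent endopeptidases that cut collagens, gelatin, proteoglycans and other proteins outside the cell. They are made as inactive precursors, and most are secreted, whereas the membrane-type enzymes stay on the cell surface. TIMPs bind the active site of MMPs and block it, so the amounts of both are part of what sets how much matrix fibroblasts degrade. TGFB1 is a cytokine known to shift fibroblasts towards building and keeping matrix.

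Values are RPKM, the reads on the exons of a transcript per kilobase of its length, scaled to the mapped reads of the library, so they can be set side by side between genes. RPKM steps gave 56140000 to 57290000 mapped reads per library, and 3 reads on a transcript of 1 kilobase were worth 0.0524 to 0.0534 RPKM. With 1 library per condition the spread between replicates is unknown, no test was run and no p-value is given. Intervals are exact 95% intervals from counting error on the derived reads. They compare 2 libraries and not the conditions, and they cover counting error only. PCR copies are not independent molecules, so the intervals may be too narrow even for that error. A gene was called higher or lower at a 1.5-fold difference or more, with 0 RPKM set to 0.001. The genotypes are also separate immortalized MEF cultures, so genotype and line cannot be told apart. In bulk RNA fewer cells of a type cannot be told apart from less RNA per cell. The libraries matched their labels: *Hmga2* had 14.8 and 40.7 RPKM in the *Hmga2*+/+ Ctrl and TGFB1 libraries and 0 reads in both *Hmga2*-/- libraries. Of the genes known to respond to TGFB1, *Ccn2* (*Ctgf*) had 13.2 and 173 RPKM without and with it in *Hmga2*+/+ MEF and 24.9 and 359 RPKM in *Hmga2*-/- MEF, and *Smad7* was also called higher in both. Of 10 fibroblast markers, 9 or 10 reached 1 RPKM in every library. With TGFB1, *Col3a1*, *Pdgfra*, *S100a4*, *Dcn* and *Lum* were lower in both genotypes, and *Col1a1*, *Pdgfrb* and *Thy1* were higher. *Col1a2* and *Vim* differed in direction between the genotypes. The 6 macrophage and leukocyte markers summed to 1.39 to 1.999 RPKM, most of it *Cd68*, with *Ptprc* at 0.007 RPKM or less, and all 4 skeletal muscle markers were at 0. Other lists were low but not absent: the 4 endothelial markers summed to 3.89 to 8.14 RPKM, mainly from *Kdr* and *Tek*, with *Pecam1* at 0.030 RPKM or less. The 4 epithelial markers summed to 0.403 to 1.04 RPKM. The 3 chondrocyte markers, led by *Sox9*, summed to 3.40 and 2.08 RPKM in the Ctrl libraries and to 6.02 and 6.21 RPKM in the TGFB1 libraries, where each of the 3 was higher than in Ctrl. The 3 osteoblast markers summed to 4.12 and 4.00 RPKM in Ctrl and to 7.29 and 7.13 RPKM with TGFB1, a difference made by *Runx2* alone, since *Sp7* and *Bglap* were lower with TGFB1 and at 0.299 RPKM or less. Their part in the results was not tested.

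The genes fell into a high and a low range of expression. In every library *Mmp14*, *Mmp2*, *Timp1*, *Timp2* and *Timp3* lay between 18.4 and 211 RPKM, whereas *Mmp3* and *Mmp11* lay between 1.22 and 7.39 RPKM and *Mmp9*, *Mmp10* and *Mmp13* between 0 and 1.10 RPKM. In both Ctrl libraries the order from the top was *Mmp14*, *Timp2*, *Timp3*, *Mmp2* and *Timp1*. In both TGFB1 libraries *Timp1* came first. Behind it were *Mmp14*, *Timp3*, *Timp2* and *Mmp2* in *Hmga2*+/+ and *Timp3*, *Mmp14*, *Timp2* and *Mmp2* in *Hmga2*-/- MEF. Neighbours in these orders differed beyond counting error, except *Mmp3* and *Mmp11* in the *Hmga2*-/- Ctrl library (3.21 and 3.18 RPKM) and the neighbours *Mmp9* and *Mmp10* in all 4 libraries, with *Mmp13* and *Mmp9* added in the *Hmga2*+/+ Ctrl library. The plot of RPKM by gene and library shows the levels.

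**Figure D1:**
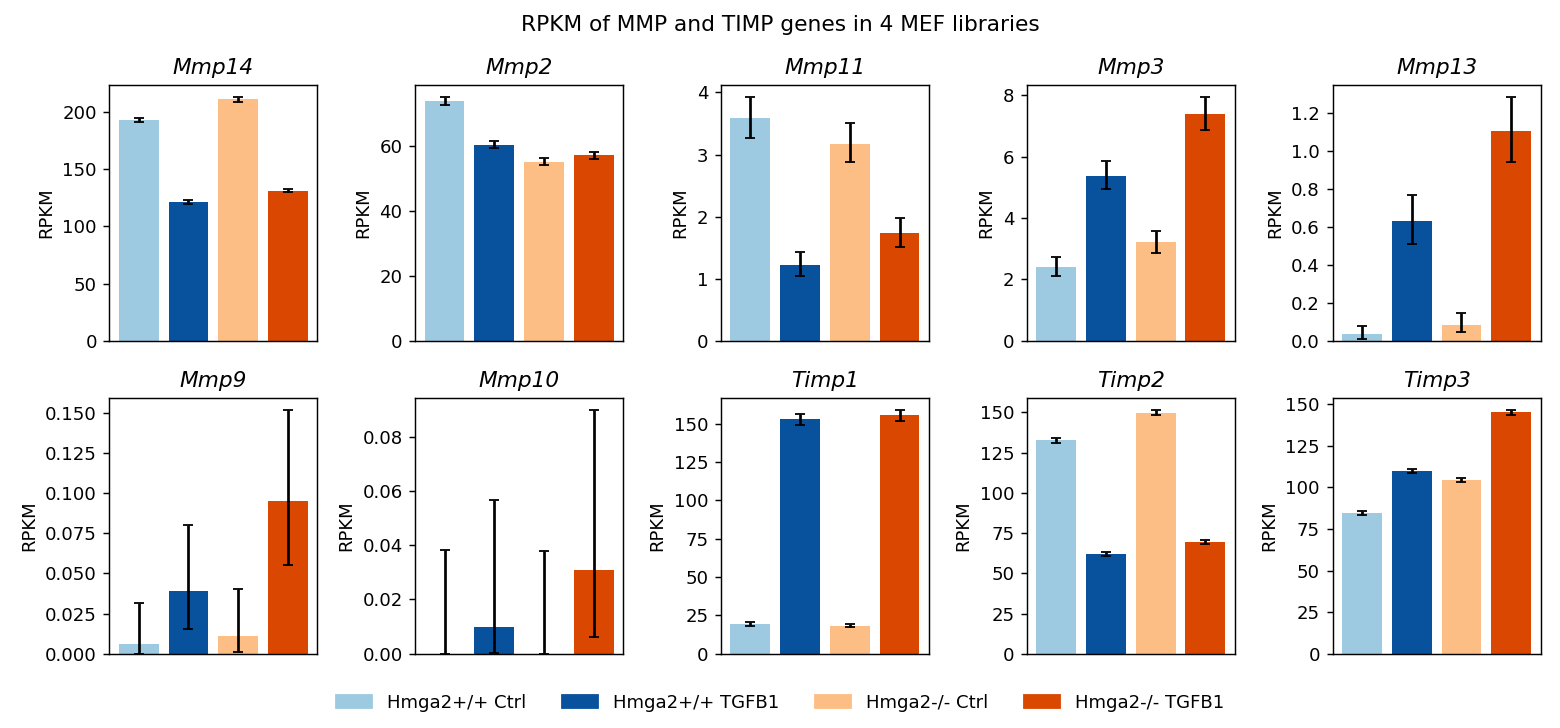
Bars give the RPKM of each MMP and TIMP gene in the 4 libraries (1 library per bar, own vertical scale per gene from 0), and the lines are exact 95% Poisson intervals from counting error only. *Timp1* is at 19.5 and 18.4 RPKM in the Ctrl libraries and at 153 and 155 RPKM in the TGFB1 libraries, while *Mmp14* and *Timp2* are lower with TGFB1 in both genotypes.

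Of the 10 genes, 5 were called higher and 3 lower in the TGFB1 than in the Ctrl library of *Hmga2*+/+ MEF. Among all 25909 named genes 11.7% were called higher and 19.3% lower. Among the 10788 genes with a mean of at least 1 RPKM over the 4 libraries the shares were 11.6% and 15.9%. The 7 MMP and TIMP genes that met this minimum gave 2 higher and 3 lower. In *Hmga2*-/- MEF the counts were again 5 higher and 3 lower of 10, and 2 higher and 3 lower of 7. The shares over all named genes were 12.9% higher and 18.4% lower there, and over the genes with at least 1 RPKM 13.4% and 14.2%. Because the 10 genes were chosen with earlier results of these data known, the counts beside these shares are a description only. The same 5 genes (*Mmp3*, *Mmp9*, *Mmp10*, *Mmp13* and *Timp1*) were higher and the same 3 (*Mmp11*, *Mmp14* and *Timp2*) were lower in both genotypes. The median log2 change of the 7 genes was −0.29 in *Hmga2*+/+ and 0.05 in *Hmga2*-/- MEF, against −0.04 and 0.02 for all genes with at least 1 RPKM. Over all 10 genes it was 0.77 and 0.84, which includes the low genes and 0 RPKM set to 0.001. Of the 5 higher genes *Mmp9* and *Mmp10* rest on few reads, at most 17 and 3 in any library.

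*Mmp14* encodes the membrane-type collagenase MT1-MMP, which cuts fibrillar collagen at the cell surface and activates the MMP2 precursor. Its transcript lies on the plus strand of chromosome 14 from 54431598 to 54442456 and was the highest of the MMPs in every library. It had 193 RPKM in *Hmga2*+/+ Ctrl, 121 in *Hmga2*+/+ TGFB1, 211 in *Hmga2*-/- Ctrl and 131 in *Hmga2*-/- TGFB1, from 26261 to 45162 reads. Both TGFB1 libraries were below both Ctrl libraries. The log2 change was −0.67 (−0.69 to −0.65) in *Hmga2*+/+ and −0.69 (−0.71 to −0.66) in *Hmga2*-/- MEF, a 1.59-fold and a 1.61-fold lower level. In the Ctrl libraries it ranked 65 and 61 among the 25909 genes.

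*Mmp2* encodes gelatinase A, which degrades gelatin and basement membrane collagen. On the plus strand of chromosome 8 from 92827297 to 92853421, it had 73.8, 60.4, 55.2 and 57.1 RPKM in the order *Hmga2*+/+ Ctrl, *Hmga2*+/+ TGFB1, *Hmga2*-/- Ctrl and *Hmga2*-/- TGFB1, an order kept for the genes that follow. The *Hmga2*+/+ Ctrl library stood above the other three, which lay close together. The TGFB1 library was lower in *Hmga2*+/+ MEF (log2 change −0.29, −0.33 to −0.25) and slightly higher in *Hmga2*-/- MEF (0.05, 0.01 to 0.09). Neither reached 1.5-fold. *Mmp9* encodes the other gelatinase, gelatinase B, and lies on the plus strand of chromosome 2 from 164948219 to 164955850. It was barely detected, with 1, 7, 2 and 17 reads (0.006, 0.039, 0.011 and 0.095 RPKM). Its TGFB1 to Ctrl ratio was 6.50 in *Hmga2*+/+ MEF (counting interval 0.881 to 309) and 8.64 in *Hmga2*-/- MEF (2.01 to 75.4), so the difference within *Hmga2*+/+ MEF was not detectable at this depth.

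*Mmp3* encodes stromelysin-1, a secreted enzyme with a wide range of matrix substrates that also activates other MMP precursors. It lies on the plus strand of chromosome 9 from 7445822 to 7455974. *Mmp3* had 2.42, 5.38, 3.21 and 7.39 RPKM from 242, 549, 324 and 749 reads. Both TGFB1 libraries were above both Ctrl libraries. The fold was 2.22 (1.91 to 2.60) in *Hmga2*+/+ and 2.30 (2.01 to 2.63) in *Hmga2*-/- MEF. Its close relative *Mmp10*, stromelysin-2, lies on the same strand from 7502342 to 7510242 and had 0, 1, 0 and 3 reads (0, 0.010, 0 and 0.031 RPKM). All 4 values were at or under 3 reads, so no fold is given. *Mmp13* encodes the main interstitial collagenase of the mouse and lies on the plus strand of chromosome 9 from 7272514 to 7283333. *Mmp13* had 0.034, 0.631, 0.086 and 1.10 RPKM from 5, 96, 13 and 167 reads. It was 18.6-fold higher with TGFB1 in *Hmga2*+/+ MEF (7.79 to 59.3) and 12.8-fold higher in *Hmga2*-/- MEF (7.27 to 24.5), while its level stayed at or below 1.10 RPKM. The size rests on the low Ctrl values: the log2 changes of 4.21 and 3.68 became 2.45 and 2.69 with a pseudocount of 0.1 and 0.66 and 0.95 with a pseudocount of 1.

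*Mmp11* encodes stromelysin-3, which is activated inside the cell by furin and secreted in active form. Its transcript spans 75923222 to 75932502 of chromosome 10, minus strand. *Mmp11* had 3.58, 1.22, 3.18 and 1.73 RPKM from 457, 159, 409 and 224 reads. Both TGFB1 libraries were lower than both Ctrl libraries. The fall was 2.93-fold in *Hmga2*+/+ (log2 change −1.55, −1.82 to −1.29) and 1.84-fold in *Hmga2*-/- MEF (−0.88, −1.12 to −0.64). The second annotated transcript of *Mmp11*, which shares its reads, gave log2 changes of −1.58 and −0.83. *Mmp11* was thus the stromelysin that differed in the opposite direction from *Mmp3*.

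*Timp1* encodes a secreted inhibitor of most MMPs that is weak against membrane-type enzymes. Its transcript lies on the plus strand of chromosome X from 20870166 to 20874737. *Timp1* had 19.5, 153, 18.4 and 155 RPKM from 962, 7698, 915 and 7779 reads. The 2 Ctrl libraries lay close together, as did the 2 TGFB1 libraries, with a gap between them. The fold was 7.84 (7.33 to 8.39) in *Hmga2*+/+ and 8.45 (7.89 to 9.06) in *Hmga2*-/- MEF, the 41st and 44th largest increases among the 10788 genes with at least 1 RPKM. The other 2 annotated transcripts of *Timp1* gave log2 changes of 2.97 and 2.77 in *Hmga2*+/+ and 3.08 and 2.93 in *Hmga2*-/- MEF, against 2.97 and 3.08 for the transcript used.

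*Timp2* encodes the inhibitor that, besides blocking MMPs, bridges MMP14 and the MMP2 precursor at the cell surface. Its transcript spans 118301061 to 118355411 of chromosome 11, minus strand. *Timp2* had 133, 62.0, 150 and 69.2 RPKM, with both TGFB1 libraries below both Ctrl libraries. The level was 2.14-fold lower in *Hmga2*+/+ (log2 change −1.10, −1.13 to −1.07) and 2.16-fold lower in *Hmga2*-/- MEF (−1.11, −1.14 to −1.08). *Timp3* encodes an inhibitor that stays bound to the matrix and also blocks several ADAM and ADAMTS proteases. On the plus strand of chromosome 10 from 86300412 to 86349505, it had 84.4, 110, 104 and 145 RPKM. TGFB1 libraries were higher within each genotype, by a log2 change of 0.38 (0.36 to 0.41) in *Hmga2*+/+ and 0.48 (0.45 to 0.50) in *Hmga2*-/- MEF, under the 1.5-fold limit. Of the 3 inhibitors, 1 was thus called higher, 1 lower and 1 neither with TGFB1, and the plot of changes on TGFB1 sets them beside the enzymes.

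**Figure D2:**
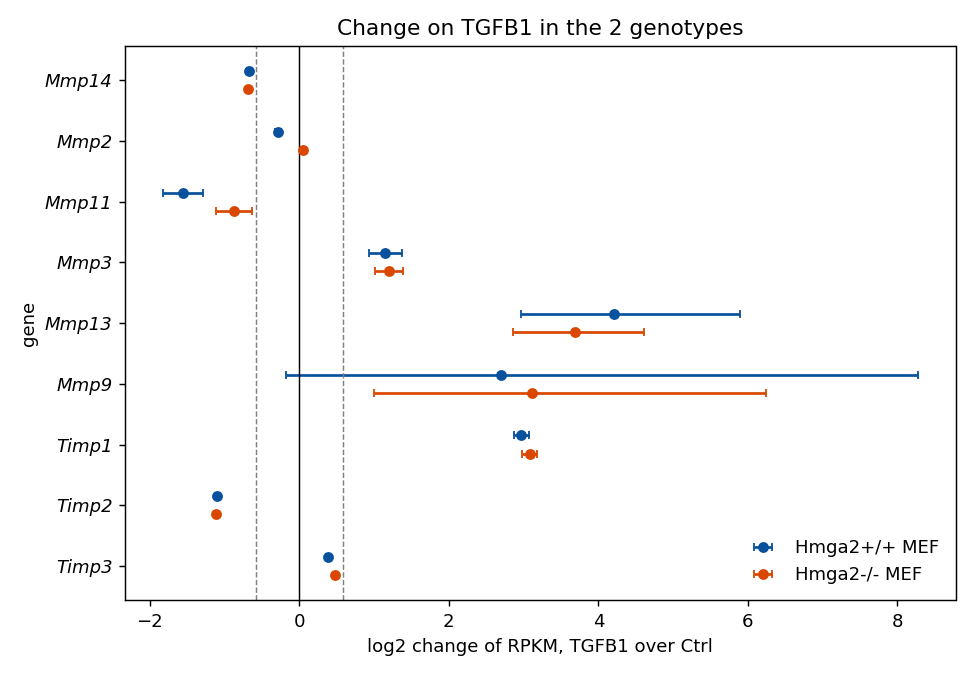
Points give the log2 change of RPKM from Ctrl to TGFB1 in *Hmga2*+/+ (blue) and *Hmga2*-/- MEF (orange), 1 library per condition, with 95% counting intervals as lines and the 1.5-fold limits as dashed lines. *Timp1* is at 2.97 and 3.08, *Timp2* at −1.10 and −1.11 and *Timp3* at 0.38 and 0.48; *Mmp10* is left out because it had at most 3 reads.

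Among all genes with a mean of at least 1 RPKM, *Timp1* was placed far in the upper tail of the changes and *Mmp11* and *Timp2* in the lower tail. *Mmp11* had the 217th largest decrease in *Hmga2*+/+ but the 831st in *Hmga2*-/- MEF, and *Timp2* the 533rd and 510th. *Mmp14*, although past the 1.5-fold limit, ranked 1392 and 1211 among decreases and was less set apart. *Mmp3* ranked 380 and 390 among increases.

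**Figure D3:**
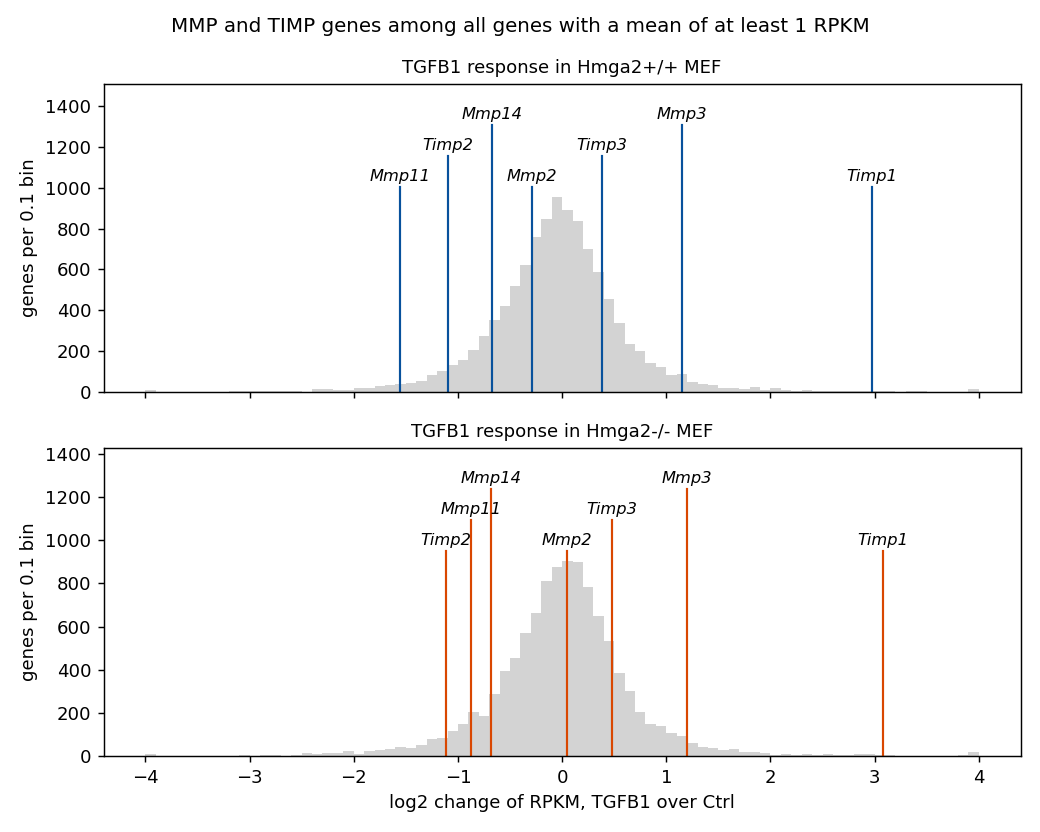
Grey bars count the 10788 genes with a mean of at least 1 RPKM by their log2 change from Ctrl to TGFB1 in bins of 0.1, with changes beyond −4 or 4 in the outer bins, and coloured lines mark the 7 MMP and TIMP genes that meet this minimum. In both genotypes *Timp1* lies near 3 and *Timp2* near −1.1, and *Mmp2* and *Timp3* lie within the 1.5-fold limits.

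The make-up of the inhibitors differed more between treatments than their sum. Summed over *Timp1*, *Timp2* and *Timp3* the level was 237 RPKM in *Hmga2*+/+ Ctrl, 325 in *Hmga2*+/+ TGFB1, 272 in *Hmga2*-/- Ctrl and 370 in *Hmga2*-/- TGFB1. *Timp1* made up 8.24% of this sum in the Ctrl library and 47.1% in the TGFB1 library of *Hmga2*+/+ MEF, and 6.75% and 42.0% in the *Hmga2*-/- libraries. *Timp2* made up 56.1% and 19.1%, and 54.9% and 18.7%. The share of *Timp3* stayed between 33.9% and 39.2% in all 4 libraries. *Timp2* was therefore the leading inhibitor transcript without TGFB1 and *Timp1* with it.

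The 7 MMPs together had 273, 189, 273 and 199 RPKM, and *Mmp14* and *Mmp2* made up between 94.8% and 97.8% of that sum in every library. The differences of *Mmp3* and *Mmp13* hardly moved it: *Mmp3* went from 0.887% to 2.85% of the sum in *Hmga2*+/+ and from 1.18% to 3.72% in *Hmga2*-/- MEF. The ratio of summed MMP to summed TIMP RPKM was 1.15 in *Hmga2*+/+ Ctrl and 0.581 in *Hmga2*+/+ TGFB1, and 1.00 and 0.537 in the *Hmga2*-/- libraries. *Mmp14* over *Timp2*, the surface enzyme over its bridging inhibitor, went the other way, from 1.46 to 1.96 in *Hmga2*+/+ and from 1.41 to 1.90 in *Hmga2*-/- MEF, since *Timp2* was lowered more. These are ratios of transcript levels and not of protein or activity. The summed ratio counts every TIMP against every MMP alike, although *Mmp14* made up 64.2% to 77.4% of the MMP sum. *Timp1* encodes an inhibitor that is weak against membrane-type enzymes such as MMP14.

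**Figure D4:**
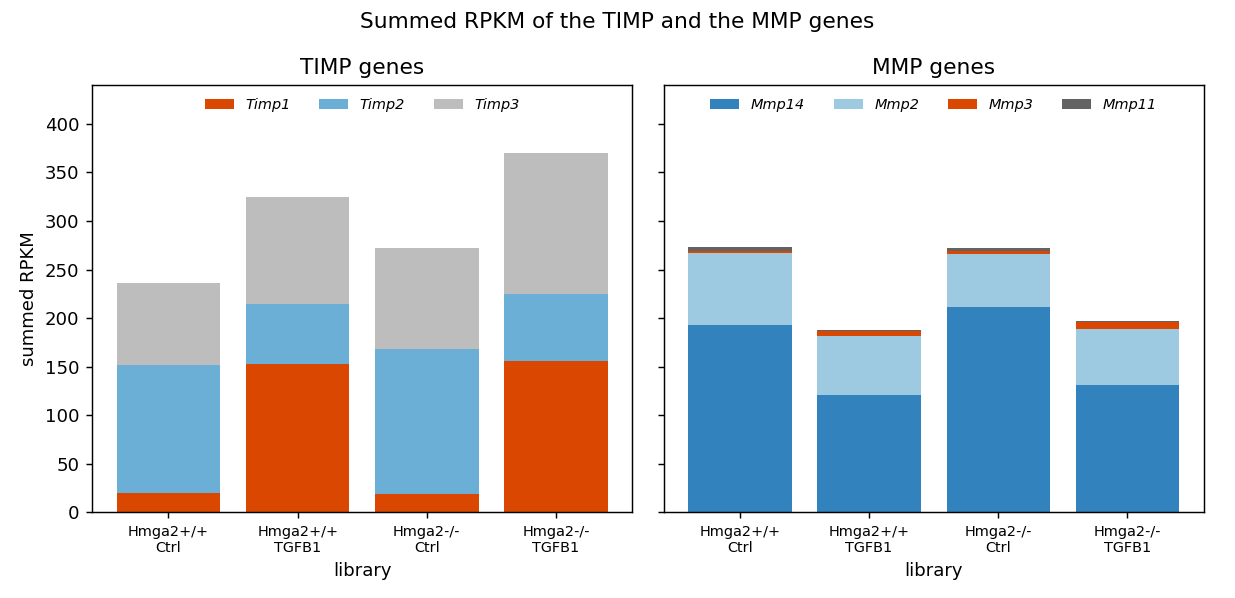
Stacked bars give the summed RPKM of the TIMP genes (left) and of the 4 highest MMP genes (right) in the 4 libraries, 1 library per bar; *Mmp9*, *Mmp10* and *Mmp13* are too low to be seen and are left out. With TGFB1 the TIMP bars reach 325 and 370 RPKM with a large *Timp1* segment, while the MMP bars, made almost wholly of *Mmp14* and *Mmp2*, are lower than in Ctrl.

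The promoters of the genes were compared because genes called higher with TGFB1 included 3 that lie in 1 cluster. Of these, *Mmp10* was called on only 1 and 3 reads. A further reason was that AP-1, a transcription factor made of JUN and FOS proteins, is known to drive several secreted MMPs. RefSeq sequence of GRCm38.p6, from 250 bases before to 50 after the start, was at hand for 8 of the 10 genes, all with the same start as the transcript in the table; *Mmp2* and *Mmp9* had no entry. Both strands were searched for 5 motifs. The AP-1 motif was spelled TGAGTCA. The TATA box, which places the start of transcription in many inducible genes, was spelled TATAAA. The GC box, bound by SP1 and its relatives, was spelled GGGCGG. The motif of SMAD proteins, which carry the TGFB1 signal, was spelled CAGAC. The core of the TGF-beta inhibitory element, known from the stromelysin-1 promoter of the rat, was spelled TTGGTGA. No match of one motif overlapped a match of another in these 8 promoters. An AP-1 match was in 3 of the 8 (*Mmp3*, *Mmp10* and *Mmp13*), and the same 3 held a TATA box. Over all 32851 promoters 5.2% held the AP-1 motif, 13.6% the TATA box and 0.941% both. The AP-1 match began 46 bases before the start in *Mmp3*, 63 in *Mmp10* and 35 in *Mmp13*. The TATA box match began 7 bases before the start in *Mmp3*, 29 in *Mmp10* and 16 in *Mmp13*. The other 5 (*Mmp11*, *Mmp14*, *Timp1*, *Timp2* and *Timp3*) held a GC box and no exact AP-1 or TATA match. A GC box was in 35.7% of all promoters. Only exact spellings were counted. The *Timp1* promoter held TGAGTAA and TGACTCC, and that of *Mmp3* also held TGACTCT. Each is 1 base away from TGAGTCA or from TGACTCA, its spelling on the other strand. No search for near matches was run over the promoters, so there may be others, and an AP-1 site of another spelling is not excluded. SMAD matches were in 2 of the 8 (49.6% of all promoters) and the inhibitory element core in 0 (3.94%). Sites more than 250 bases before the start lay outside the search, so the 0 holds for this window only.

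The 3 promoters with the AP-1 motif are shown because they belong to MMPs called higher with TGFB1, *Mmp10* on only 1 and 3 reads. They run from 120 bases before to 50 after the start on the strand of the gene, with AP-1 and TATA box matches in capitals.
*Mmp3* (chr9:7445702-7445871, plus strand): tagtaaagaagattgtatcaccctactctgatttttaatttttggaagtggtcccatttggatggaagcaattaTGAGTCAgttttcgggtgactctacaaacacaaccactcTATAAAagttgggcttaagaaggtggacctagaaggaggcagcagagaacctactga
*Mmp10* (chr9:7502222-7502391, plus strand): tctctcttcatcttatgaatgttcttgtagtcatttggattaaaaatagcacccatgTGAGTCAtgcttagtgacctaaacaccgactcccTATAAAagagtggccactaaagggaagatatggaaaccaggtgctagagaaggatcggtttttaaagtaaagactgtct
*Mmp13* (chr9:7272394-7272563, plus strand): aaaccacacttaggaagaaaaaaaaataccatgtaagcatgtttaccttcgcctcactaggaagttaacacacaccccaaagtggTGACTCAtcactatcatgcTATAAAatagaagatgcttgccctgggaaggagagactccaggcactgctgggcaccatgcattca
Beside them stand *Timp1*, called higher, and *Mmp14* and *Timp2*, called lower, with GC boxes in capitals.
*Timp1* (chrX:20870046-20870215, plus strand): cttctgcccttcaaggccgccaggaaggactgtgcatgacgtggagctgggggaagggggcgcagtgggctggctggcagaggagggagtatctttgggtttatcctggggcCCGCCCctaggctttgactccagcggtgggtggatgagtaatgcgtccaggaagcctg
*Mmp14* (chr14:54431478-54431647, plus strand): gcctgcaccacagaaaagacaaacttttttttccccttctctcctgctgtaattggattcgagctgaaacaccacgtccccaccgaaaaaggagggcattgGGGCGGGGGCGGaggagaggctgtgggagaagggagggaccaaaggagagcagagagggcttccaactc
*Timp2* (chr11:118355362-118355531, minus strand): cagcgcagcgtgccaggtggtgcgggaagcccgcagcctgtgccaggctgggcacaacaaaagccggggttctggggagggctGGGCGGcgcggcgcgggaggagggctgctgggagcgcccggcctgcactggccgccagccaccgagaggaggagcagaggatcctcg

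Promoter class and change with TGFB1 were not the same grouping. The 3 AP-1 and TATA box promoters belonged to genes called higher, *Mmp10* on 1 and 3 reads. The 5 GC box promoters belonged to *Timp1* (higher), *Timp3* (neither) and *Mmp11*, *Mmp14* and *Timp2* (lower). Both classes rest on exact spellings, and near matches to the AP-1 motif, such as those of *Timp1*, were left out of them. A match is a description of these letters and not a bound site.

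The 3 genes with AP-1 matches are part of a run of 10 MMP genes on chromosome 9 from 7272514 to 7699585 (427.1 kb), 9 of them on the plus strand. From *Mmp13* the run goes through *Mmp12*, *Mmp1b*, *Mmp3*, *Mmp1a*, *Mmp10*, *Mmp8*, *Mmp27* and *Mmp20* to *Mmp7*. Only *Mmp3* and *Mmp13* reached 1 RPKM in at least 1 library. *Mmp1a*, *Mmp7*, *Mmp8* and *Mmp20* were at 0 in all 4, under the floor of 3 reads. *Mmp12* had 5 reads in the *Hmga2*-/- Ctrl library and 0 elsewhere, and *Mmp1b* had 8 and 1 reads in the *Hmga2*+/+ and *Hmga2*-/- TGFB1 libraries and 0 in both Ctrl libraries. Promoters of *Mmp1a*, *Mmp1b*, *Mmp7* and *Mmp12* also held the AP-1 motif, so the motif was shared by genes at or near 0 here.

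Outside the 10 genes, 17 further MMP and TIMP genes were looked up, and 2 of them reached 1 RPKM in at least 1 library. *Mmp16*, a membrane-type enzyme like *Mmp14*, had 3.03, 1.43, 2.04 and 0.885 RPKM, lower with TGFB1 by log2 changes of −1.08 and −1.20. *Mmp19* had 2.09, 1.19, 2.44 and 1.16 RPKM, lower by −0.80 and −1.07. Of the other 15, 11 were above 0 but under 1 RPKM and 4 were at 0 in all libraries. Over all 17 the 1.5-fold rule called 2 higher and 8 lower in *Hmga2*+/+ and 2 higher and 9 lower in *Hmga2*-/- MEF, with median log2 changes of −0.43 and −0.62, beside the shares over all named genes given above. Of these TGFB1 calls, those of *Mmp1b*, *Mmp12*, *Mmp21*, *Mmp24*, *Mmp25*, *Mmp27* and *Timp4* rest on 8 or fewer reads in both libraries. Against *Hmga2*+/+, 3 of the 17 were called higher and 1 lower in the *Hmga2*-/- Ctrl library and 2 higher and 3 lower in the *Hmga2*-/- TGFB1 library, among them *Mmp16* in TGFB1 (log2 change −0.69). Of all named genes 8.47% were higher and 8.82% lower in Ctrl and 9.41% and 8.27% in TGFB1. Most of the calls between genotypes rest on few reads, with 16 or fewer in both libraries except for *Mmp16*, *Mmp15* and *Mmp23*.

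Genes that activate, restrain or clear MMPs were also looked up, 14 in all, of which 12 reached 1 RPKM. In *Hmga2*+/+ MEF 5 of the 14 were called higher and 2 lower, and in *Hmga2*-/- MEF 5 higher and 3 lower, with median log2 changes of 0.07 and 0.12, beside 11.7% higher and 19.3% lower of all named genes in *Hmga2*+/+ and 12.9% and 18.4% in *Hmga2*-/- MEF. *Lcn2*, called higher in *Hmga2*+/+ and lower in *Hmga2*-/- MEF, had at most 4 reads. *Reck*, a membrane-anchored inhibitor of MMPs, had 4.33, 1.51, 4.16 and 1.28 RPKM, 2.86-fold and 3.24-fold lower with TGFB1. It was lower in both TGFB1 libraries, as *Timp2* was and unlike *Timp1*. *Furin*, the protease that activates MMP11 and MMP14 precursors, had 7.75, 11.8, 6.78 and 14.4 RPKM, 1.53-fold and 2.13-fold higher. *Cd44*, a hyaluronan receptor that can hold MMP14 and MMP9 at the cell surface, had 13.4, 59.6, 18.7 and 86.7 RPKM, 4.46-fold and 4.64-fold higher.

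The plasmin system, which can activate secreted MMP precursors, was uneven. *Plaur*, the urokinase receptor, had 2.24, 11.2, 3.95 and 21.0 RPKM, 5.01-fold and 5.31-fold higher. Promoters were at hand for 8 of the 14 genes, and an AP-1 match was in that of *Plaur* alone. Those of *Cd44* and *Furin*, also called higher, held none. *Plat*, the tissue plasminogen activator, had 9.57, 16.9, 7.67 and 12.8 RPKM. *Plau*, the urokinase itself, had 3.83, 3.99, 5.51 and 5.94 RPKM and was within 1.5-fold, and *Plg*, plasminogen, was at 0 in all 4 libraries. Levels were near those of Ctrl for the MMP inducer *Bsg* (166, 193, 185 and 214 RPKM) and the clearance receptor *Lrp1* (59.9, 62.9, 57.3 and 61.0 RPKM). Of the TIMP3-sensitive proteases, *Adamts5*, an aggrecan-cutting enzyme, had 24.3, 7.05, 27.8 and 6.06 RPKM, 3.45-fold and 4.59-fold lower. *Adamts4*, which cuts the same substrate, had 1.81, 1.78, 2.03 and 3.87 RPKM, so only the *Hmga2*-/- TGFB1 library was high. The membrane-bound sheddases *Adam10* (33.4, 31.1, 31.6 and 34.7 RPKM) and *Adam17* (18.6, 18.0, 17.0 and 17.5 RPKM) stayed within 1.5-fold. Between genotypes, 2 of the 14 were called higher and 0 lower in the *Hmga2*-/- Ctrl library, and 2 higher and 1 lower in the *Hmga2*-/- TGFB1 library. Of all named genes 8.47% were higher and 8.82% lower in Ctrl and 9.41% and 8.27% in TGFB1. *Plaur* was among the higher genes in both (1.77-fold and 1.87-fold), *Adamts4* in TGFB1 (2.18-fold), and *Lcn2* made up the rest.

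The levels of the MMP and TIMP genes were next compared between the genotypes under the same treatment. These comparisons use the same 4 libraries as those of treatment. In the Ctrl libraries 2 of the 10 genes were called higher and 0 lower in *Hmga2*-/- MEF, where 8.47% and 8.82% of all named genes were. These 2 were *Mmp9*, with 1 and 2 reads, and *Mmp13*, with 5 and 13 reads (log2 change 1.34, −0.21 to 3.21). Neither difference was detectable at this depth. In the TGFB1 libraries 3 were called higher and 0 lower, where 9.41% and 8.27% of all named genes were. They were *Mmp9* (7 and 17 reads, log2 change 1.28, −0.05 to 2.80), *Mmp10* (1 and 3 reads) and *Mmp13*. Of these *Mmp13* had 96 and 167 reads (log2 change 0.81, 0.44 to 1.19). Among the 7 genes with at least 1 RPKM, 0 were called in either direction with or without TGFB1, beside 2.23% higher and 1.93% lower of all such genes in Ctrl and 3.01% and 1.96% in TGFB1.

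Below the 1.5-fold limit several differences between the lines were larger than counting error. *Mmp2* was lower in the *Hmga2*-/- Ctrl library (log2 change −0.42, −0.46 to −0.38), and the gap was smaller with TGFB1 (−0.08, −0.12 to −0.04). *Timp3* was higher in *Hmga2*-/- MEF in Ctrl (0.31, 0.28 to 0.33) and in TGFB1 (0.40, 0.38 to 0.42). *Mmp3* was higher by 0.41 (0.16 to 0.66) and 0.46 (0.30 to 0.62). *Mmp11* had the largest difference in TGFB1 among the 7 genes with at least 1 RPKM (0.50, 0.20 to 0.81), whereas in Ctrl its interval held 0 (−0.17, −0.37 to 0.02). *Mmp14* was higher by 0.13 (0.11 to 0.15) and 0.11 (0.09 to 0.14), and *Timp2* by 0.18 (0.15 to 0.20) and 0.16 (0.12 to 0.19). On rescaling, *Mmp14* became 0.151 and 0.084 and *Timp3* in TGFB1 became 0.369, still higher but beyond their counting intervals. *Timp1*, by contrast, differed by −0.08 (−0.22 to 0.05) in Ctrl and 0.02 (−0.02 to 0.07) in TGFB1, intervals that hold 0; rescaled by the median ratio of all genes the second was −0.01. How these differences compare with the spread between cultures of 1 genotype is unknown.

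The TGFB1 response was also set side by side between the genotypes, as the log2 change in *Hmga2*-/- minus that in *Hmga2*+/+ MEF. It was −0.01 (−0.04 to 0.02) for *Mmp14*, −0.02 (−0.06 to 0.03) for *Timp2*, 0.11 (−0.03 to 0.25) for *Timp1* and 0.05 (−0.24 to 0.34) for *Mmp3*, all with counting intervals that hold 0. Rescaling the libraries moved *Mmp14* to −0.067 and *Timp2* to −0.07, both beyond their counting intervals. For *Mmp11* the response was smaller in *Hmga2*-/- MEF, by 0.68 (0.33 to 1.03), and for *Mmp2* it had the opposite sign, with a difference of 0.34 (0.28 to 0.39). *Timp3* differed by 0.09 (0.06 to 0.13). For *Mmp13* the difference was −0.53 (−2.06 to 1.00) and for *Mmp9* 0.41 (−3.28 to 4.10), intervals too wide to read at these read numbers. The sign for *Mmp13* turned with a pseudocount of 0.1 (0.25) or 1 (0.30), and the small value for *Mmp3* became −0.006 on rescaling. No replicates stand behind these differences, and none was tested.

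Genes with the profile most like that of an MMP and of a TIMP were searched among the 4818 protein-coding genes for which some library reached 10 RPKM. Likeness was the Euclidean distance between log2 RPKM centred over the 4 libraries, so it rests on 4 points. *Mmp3* had the widest range of the MMPs that reached 1 RPKM in every library (1.61 on the log2 scale), and the closest genes were *Dpysl3* (distance 0.07), *Fhl2* (0.09) and *Klf9* (0.11). *Dpysl3* had 11.03, 24.5, 13.8 and 32.8 RPKM. *Timp1* had the widest range of the TIMPs (3.08), and the closest were *Ltbp2* (0.25), *Bmp2* (0.34) and *Pmepa1* (0.38). *Ltbp2*, which encodes a protein of elastic microfibrils, had 10.99, 74.1, 10.9 and 93.5 RPKM.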

How the data were processed

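Total RNA of 4 MEF libraries was sequenced by the authors as single-end reads after a stranded total RNA preparation. According to the paper's methods, the submitters' processing notes and the file header, reads were trimmed with Trimmomatic, mapped to mm10 with HISAT2 2.1.0 and counted with HOMER on the exons of UCSC known genes on the annotated strand; the methods name genes in place of exons. The authors deposited RPKM with 3 decimals, and the only other column used is the deposited length of each transcript in bases, a number of no sample. Whether duplicates were pooled is not stated. No column of sample values was left unused (0).

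Names came from GENCODE vM21: a transcript took the same-strand gene of best overlap, provided that at least 50% of its span was covered. This named 57708 of 63759 transcripts (90.5%). One transcript per gene, with the longest gene body, left 25909 genes. Mapped reads per library were derived as the depth that turns the low RPKM of transcripts under 600 bases into whole reads; 100% of 852 to 883 low values per library lay within 0.1 of a whole read. Reads on the named genes were rounded from these depths. Intervals of ratios are Clopper-Pearson, conditional on the summed reads, and those of differences between responses are normal, from the sum of 1/reads. Steps were checked on simulated tables with known depths. Python 3.11.15, numpy 2.4.6, pandas 2.3.3, scipy 1.17.1 and matplotlib 3.10.9 were used.

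The 10 genes and the other gene lists were chosen with earlier results of these data known. Named in the text are the 10 genes, those of the family and pathway lists that reach 1 RPKM in at least 1 library, *Hmga2*, *Ctgf* and *Smad7*, and the 3 genes most like the MMP and the TIMP with the widest range; *Lcn2*, *Plg* and other family, cluster and marker genes were named after their values were seen. Alternatives changed the value for 0 RPKM, the filter, the scaling, the transcript and the fold limit. Protein sequences were not analysed here, and a further marker of treatment is not reported here.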

Additional observations from a re-analysis of the deposited data

Results flagged for a closer look

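Of the MMP and TIMP genes, *Mmp2* had TGFB1 responses of opposite sign in the 2 genotypes, lower with TGFB1 in *Hmga2*+/+ and higher in *Hmga2*-/- MEF, with a difference of 0.34 on the log2 scale. The same held for *Adam10* (difference 0.24), *Adam17* (0.077) and *Adamts4* (0.96) among the genes that act on or beside MMPs. With 1 library per condition these differences were not tested. For *Adam17* both responses had counting intervals that hold 0, as had that of *Adamts4* in *Hmga2*+/+ MEF. Groups of 1 library allow no search for samples that stand apart.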

How the results depend on the processing

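Of 140 log2 changes of 9 genes under an alternative (*Mmp10* in no comparison and *Mmp9* not between the Ctrl libraries, for want of reads), 122 stayed within the counting interval of the reported value, 18 moved beyond it and 0 of the called ones changed sign. The change of *Mmp9* in *Hmga2*-/- MEF went from 3.11 to 0.81 and 0.12 with pseudocounts of 0.1 and 1; *Mmp13* moved likewise. Counts of genes called higher with TGFB1 rest on low genes: in *Hmga2*+/+ MEF 5 became 3 with a pseudocount of 0.1 or 1 and 2 with a mean of at least 1 RPKM, and in *Hmga2*-/- MEF 5 became 3 with a pseudocount of 1 and 2 with the mean of at least 1 RPKM. At a 2-fold limit 1 gene in place of 3 was lower in *Hmga2*-/- MEF. Between genotypes, the 2 genes higher in Ctrl became 0 with either pseudocount or the mean of at least 1 RPKM and 1 at 2-fold; the 3 higher in TGFB1 became 1 with a pseudocount of 0.1 and 0 with a pseudocount of 1 or the mean of at least 1 RPKM. Rescaling moved the genotype difference in the response to −0.067 for *Mmp14*, −0.07 for *Timp2* and 0.040 for *Timp3*, each beyond its counting interval. For *Mmp3* the difference turned to −0.006 on rescaling, and for *Mmp13* the pseudocounts turned −0.53 to 0.25 and 0.30. These values of *Mmp3* and *Mmp13* lay within their counting intervals, which hold 0. The causes were not tested beyond the construction of these alternatives, which give genes of few reads less weight or leave them out. No paired analysis was possible because every condition holds a single library. Depth limits *Mmp9*, *Mmp10* and *Mmp13*, with at most 17, 3 and 167 reads.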
